A study of Mus musculus with 12 samples.

Results

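Liver transcripts of 9 genes were followed through an experiment on early chemical carcinogenesis: 8 genes that p53 is known to switch on and that act on cell cycle arrest or cell division, Cdkn1a, Mdm2, Ccng1, Btg2, Plk2, Gtse1, Psrc1 and Ckap2, together with Trp53, which encodes p53 itself. They were chosen as the array features whose gene name equals one of these 9 symbols, and 9 of 34741 named genes, read by 11 probes, met that rule. All 9 were among the 21186 genes that were well above background on at least 2 of 12 arrays. The symbols carry no information from the measurements, but the set was put together with earlier results of these arrays known.

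The arrays, 1 for each group, hold liver RNA of male ICR mice, which were 5 weeks old on purchase and were adapted for 1 week. The treatments were diethylnitrosamine (DEN) at 80 mg/L in the drinking water, all-trans retinoic acid (ATRA) at 30 mg/L together with DEN, ATRA alone, and a vehicle group given water. In the remaining groups 1.6 nmol of siRNA against G0s2 or of scrambled control siRNA was injected intravenously with a lipid carrier. Each of the 6 treatments was measured at day 2 and at day 7. DEN is a liver carcinogen that is activated inside hepatocytes and then alkylates DNA, and ATRA is the active form of vitamin A. By the protocol siRNA came 1 day ahead of DEN, but the siRNA arrays carry no DEN in their labels, and it is not stated whether these animals received it. Whether an array holds the RNA of 1 mouse or of a pool is not stated either. For 3 arrays of day 7 the title and the treatment characteristic disagree. Titles were used, and those arrays are called by title: the array titled DEN is ATRA by its characteristic, the one titled ATRA+DEN is DEN, and the one titled ATRA is ATRA+DEN.

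DNA damage stabilises the p53 protein, which binds paired short elements (decamers) near its target genes and raises their transcription. Cdkn1a encodes p21, an inhibitor of cyclin-dependent kinases and the main effector of p53-dependent arrest, while Mdm2 encodes the ubiquitin ligase that destroys p53 and so closes a feedback loop. p53 itself is controlled mostly through the stability and activity of its protein, and the amount of its transcript is therefore a separate quantity from the activity of the pathway.

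Promoter sequence was used to see what the members share besides their names. RefSeq starts on build GRCm38.p6 gave 12 promoter windows for the 9 members, each of 250 bases before and 50 bases after a start. The p53 decamer, the palindromic 10-base consensus of p53 searched on both strands, was found in 6 of these 12 windows and in 8.36% of all 32851 windows of the table. A full p53 site of 20 bases, that is 2 adjacent decamers with up to 1 mismatch, was added to the search after the decamers had been seen. It was found in 3 of the 12 windows and in 0.0883% of all windows (29 windows). The 3 windows with a full site, and that of Ckap2, which held a decamer and the only CHR element (TTTGAA, searched on both strands) among the members, follow, with the matches in capitals. The CHR element, through which cell cycle genes are kept low outside G2 and mitosis, was found in 17.9% of all windows.
Cdkn1a, chr17:29090729-29091028, plus strand: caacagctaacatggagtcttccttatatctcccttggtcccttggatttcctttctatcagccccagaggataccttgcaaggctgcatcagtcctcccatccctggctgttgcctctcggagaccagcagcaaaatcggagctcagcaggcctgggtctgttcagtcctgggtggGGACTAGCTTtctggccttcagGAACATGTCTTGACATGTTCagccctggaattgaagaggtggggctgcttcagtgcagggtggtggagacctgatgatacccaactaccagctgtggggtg
Ccng1, chr11:40755237-40755536, minus strand: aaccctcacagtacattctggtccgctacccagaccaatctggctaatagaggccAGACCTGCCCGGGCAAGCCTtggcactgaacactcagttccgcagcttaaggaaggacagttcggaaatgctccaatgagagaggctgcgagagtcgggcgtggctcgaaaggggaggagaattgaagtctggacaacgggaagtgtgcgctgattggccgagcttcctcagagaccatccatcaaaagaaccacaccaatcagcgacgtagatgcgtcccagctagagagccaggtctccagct
Gtse1, chr15:85859696-85859995, plus strand: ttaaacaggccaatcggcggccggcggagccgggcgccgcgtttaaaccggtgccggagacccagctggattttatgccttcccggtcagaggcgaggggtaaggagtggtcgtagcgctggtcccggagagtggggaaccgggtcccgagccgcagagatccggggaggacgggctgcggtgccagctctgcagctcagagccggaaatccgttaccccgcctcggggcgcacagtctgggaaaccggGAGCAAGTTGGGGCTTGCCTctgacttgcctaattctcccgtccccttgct
Ckap2, chr8:22185770-22186069, minus strand: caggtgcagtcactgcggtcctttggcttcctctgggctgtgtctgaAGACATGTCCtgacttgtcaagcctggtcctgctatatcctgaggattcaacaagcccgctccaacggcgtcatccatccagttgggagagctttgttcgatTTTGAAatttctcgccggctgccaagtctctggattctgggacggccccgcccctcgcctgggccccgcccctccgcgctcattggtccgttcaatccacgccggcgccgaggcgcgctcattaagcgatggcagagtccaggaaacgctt
The upstream of the 2 Cdkn1a windows held the full site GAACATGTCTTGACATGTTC, beginning 51 bases before that start, and a separate decamer. The Cdkn1a window at chr17:29093519-29093818 held no match. In Ccng1 the full site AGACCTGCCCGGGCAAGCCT began 195 bases before the start. In Gtse1 the full site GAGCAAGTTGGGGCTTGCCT began 1 base before one of its 2 starts. Mdm2 held the decamer GAACTTGCCT and Trp53 the decamer GGACTTGCCC, each without another beside it. No match was found in the windows of Btg2, Plk2 and Psrc1. A match describes the letters of the window and is not a measurement of p53 binding.

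The values are levels, the log2 of the processed intensity of a gene's probe minus the log2 of the array's 75th percentile, so that a level of 0 is as bright as that percentile. A log2 difference of 1 is a 2-fold difference. Levels of different genes come from different probes and are not compared with each other. The share of probes well above background ran from 41.0% to 50.7% over the arrays. The arrays lie on 4 slides: both arrays of every DEN pair shared a slide, whereas the ATRA pairs of day 7 lay across 2 slides and every slide held arrays of 1 day only. Cyp26a1, the retinoic acid hydroxylase that ATRA induces, was read as a check of the ATRA labels and had levels of 6.40 in ATRA+DEN, 6.63 in ATRA, 1.87 in DEN and 0.42 in vehicle livers at day 2. At day 7 Cyp26a1 was at 4.34 in the array titled ATRA+DEN and 7.10 in the one titled ATRA, against 1.35 in the one titled DEN and 2.38 in vehicle, so it was higher in both arrays whose title names ATRA. In bulk liver, a change in the RNA of a cell and a change in the share of cells that hold it cannot be told apart.

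The DEN comparison asked how the arrest arm of p53 stood in liver during the first week of DEN, with and without ATRA. Cdkn1a, Mdm2, Ccng1, Btg2 and Plk2 had higher mean levels with DEN than without it, by log2 differences of 1.69 to 3.20 over 4 pairs of arrays, and the Trp53 transcript differed by 0.10. Cdkn1a, Mdm2 and Ccng1 were at least 2-fold higher in all 4 pairs and well above background on every array, which held for 0.0802% of all genes tested. Without that condition on background the processed signals of Gtse1 and Psrc1 also differed by 2-fold or more in all 4 pairs, 5 members beside 0.16% of all genes. For Gtse1 and Psrc1 this is not a measured 2-fold difference, because neither was well above background on any vehicle or ATRA array, nor Gtse1 on the arrays of DEN alone. None of the 9 passed the test over all genes (limma, Benjamini-Hochberg adjusted p under 0.05), and neither did any other gene, so that the share called higher was 0.0%. Before adjustment, at p under 0.05, the same limma fit counted 1162 genes as higher and 1437 as lower. With day-7 groups taken from the characteristic in place of the title, no member was 2-fold higher in all 4 pairs, and the DEN difference of Cdkn1a was 1.20 with an adjusted p of 0.972. With the day 2 pairs alone, where titles and characteristics match, a check added after the data were seen, Cdkn1a, Mdm2 and Ccng1 were at least 2-fold higher in both pairs, as were the dim signals of Gtse1 and Psrc1 and 0.552% of all genes.

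**Figure D1:**
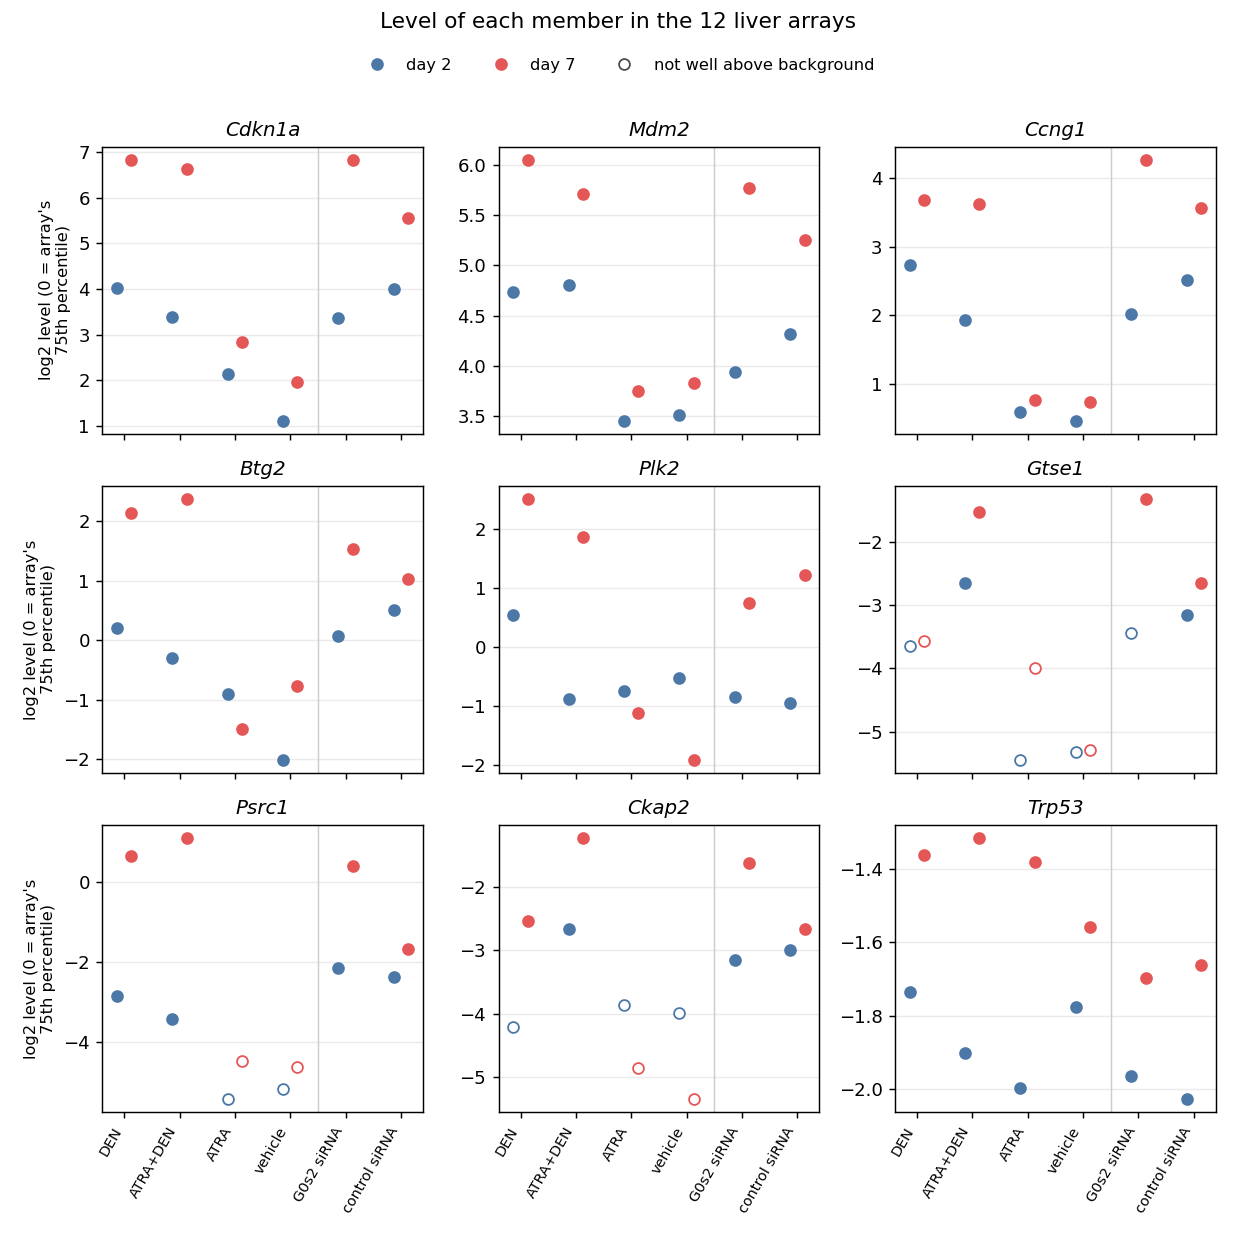
Level of each member in the 12 arrays, on a log2 scale where 0 is the array's 75th percentile (each panel has its own vertical range). Each point is 1 array, blue for day 2 and red for day 7, and open points were not well above background. Cdkn1a, Mdm2, Ccng1, Btg2, Gtse1 and Psrc1 lie higher in all 4 arrays with DEN than in all 4 of ATRA and vehicle, as do 1.31% of all genes. All 4 arrays of ATRA and vehicle are open points for Gtse1 and Psrc1, and for Gtse1 so are the arrays of DEN alone.

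Cdkn1a was read by a probe on chromosome 17 (29237377 to 29237436, build mm9, as all probe positions here) that is printed 10 times on the array. At day 2 its level was 4.02 in DEN against 1.12 in vehicle livers, and 3.39 in ATRA+DEN against 2.13 in ATRA livers. At day 7 it was 6.83 in the array titled DEN against 1.96 in vehicle, and 6.62 in the array titled ATRA+DEN against 2.84 in the one titled ATRA. The 4 arrays with DEN did not overlap with the 4 without, and the pairs differed by 7.47-fold and 2.39-fold at day 2 and by 29.2-fold and 13.8-fold at day 7. The mean difference was 3.20 (SE 0.61, 4 pairs), with a limma adjusted p of 0.237. Of 21186 genes Cdkn1a ranked 14 by this difference and 169 by its limma p-value.

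Mdm2 (chromosome 10, 117126010 to 117126069) had levels at day 2 of 4.74 in DEN against 3.51 in vehicle, and 4.81 in ATRA+DEN against 3.45 in ATRA. Its day 7 levels were 6.05 in DEN against 3.83 in vehicle and 5.71 in ATRA+DEN against 3.75 in ATRA, by title. Mdm2 was the most even of the 8 targets over the pairs: 2.34-fold and 2.56-fold at day 2 and 4.67-fold and 3.91-fold at day 7. The mean difference was 1.69 (SE 0.23), with a limma adjusted p of 0.194.

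Ccng1 (chromosome 11, 40562427 to 40562486) encodes cyclin G1, which recruits a phosphatase to Mdm2. Ccng1 levels were 2.73 in DEN against 0.47 in vehicle and 1.93 in ATRA+DEN against 0.60 in ATRA at day 2. At day 7 they were 3.67 in DEN against 0.75 in vehicle and 3.62 in ATRA+DEN against 0.78 in ATRA, by title. The 4 arrays without DEN lay within 0.47 to 0.78, a narrow band well below the lowest array with DEN. Its mean difference was 2.34 (SE 0.32), with a limma adjusted p of 0.194.

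Btg2 (chromosome 1, 135972094 to 135972153) encodes an antiproliferative protein that works with the deadenylase that shortens mRNA tails. At day 2 Btg2 stood at 0.20 in DEN against -2.01 in vehicle, but at -0.30 in ATRA+DEN against -0.91 in ATRA, a 1.53-fold difference. Day 7 gave 2.14 in DEN against -0.77 in vehicle and 2.37 in ATRA+DEN against -1.50 in ATRA, by title. All 4 arrays with DEN were above all 4 without, and the mean difference was 2.40 (SE 0.51, limma adjusted p = 0.248).

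Plk2 (chromosome 13, 111190915 to 111190974) encodes a polo-like kinase that acts early in the cell cycle and under stress. Plk2 had levels at day 2 of 0.54 in DEN against -0.52 in vehicle and of -0.88 in ATRA+DEN against -0.74 in ATRA, a difference of -0.14 in the pair with ATRA. Its level at day 7 was 2.50 in DEN against -1.91 in vehicle and 1.86 in ATRA+DEN against -1.11 in ATRA, by title, which is 21.3-fold and 7.84-fold. The DEN arrays overlapped with the arrays without DEN at day 2 only, and the mean difference of 2.08 had an SE of 0.72 (limma adjusted p = 0.355). Of 3 other polo-like kinases tested, 1 had a mean level above that without DEN, and their median difference was -0.12.

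Psrc1, Gtse1 and Ckap2 encode proteins of spindle microtubules, and Gtse1 also binds p53 and takes it out of the nucleus. Psrc1 (chromosome 3, 108190744 to 108190803) was well above background on all 4 arrays with DEN, on all 4 siRNA arrays and on no other array. Its levels were -2.86 in DEN against -5.18 in vehicle and -3.42 in ATRA+DEN against -5.43 in ATRA at day 2. At day 7 Psrc1 stood at 0.64 in DEN against -4.63 in vehicle and 1.1 in ATRA+DEN against -4.47 in ATRA, by title. Where an array of a pair is below background, only a nominal bound can be given. It is set by the dimmest signal that still counted as well above background on that array. A dim probe can lie above that signal, so every "at least" fold of a dim gene or probe here is approximate. By this bound Psrc1 at day 7 was at least 12.8-fold higher in DEN and at least 18.0-fold higher in ATRA+DEN livers. At day 2 the bound was at least 1.57-fold in DEN livers, and none can be given for ATRA+DEN livers. Over the 4 pairs together it was at least 4.36-fold. The limma difference of 3.79 (SE 0.72, adjusted p = 0.237) takes the signals below background at face value and was 1.23 with normexp background correction.

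Gtse1 (chromosome 15, 85706887 to 85706946) was well above background in both ATRA+DEN arrays and in neither DEN array. Gtse1 levels at day 2 were -3.65 in DEN against -5.31 in vehicle and -2.65 in ATRA+DEN against -5.44 in ATRA. At day 7 they were -3.57 in DEN against -5.29 in vehicle and -1.53 in ATRA+DEN against -4.00 in ATRA, by title. The bound was at least 1.70-fold for the day 2 pair with ATRA and at least 2.92-fold for the day 7 pair with ATRA, and the pairs without ATRA allow no fold. The limma difference of 2.16 (SE 0.31, adjusted p = 0.194) rests on 6 arrays of 8 that were dim and was 0.31 with normexp background correction.

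Ckap2 (chromosome 8, 23279384 to 23279443) had levels at day 2 of -4.22 in DEN against -3.99 in vehicle, both not well above background, and of -2.66 in ATRA+DEN against -3.86 in ATRA. Its day 7 levels were -2.54 in DEN against -5.35 in vehicle and -1.23 in ATRA+DEN against -4.86 in ATRA, by title. Ckap2 was at least 3.59-fold higher in ATRA+DEN livers at day 7 and at least 1.41-fold higher in DEN livers at that day. The limma difference of 1.85 (SE 0.63, adjusted p = 0.351), which also rests on dim arrays, was 0.40 with normexp background correction.

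Trp53 (chromosome 11, 69404204 to 69404263, 2 spots) was well above background on all 12 arrays and had the smallest difference of the 9. At day 2 it was at -1.74 in DEN against -1.78 in vehicle and -1.90 in ATRA+DEN against -2.0 in ATRA, and at day 7 at -1.36 in DEN against -1.56 in vehicle and -1.32 in ATRA+DEN against -1.38 in ATRA, by title. Trp53 was higher with DEN in 4 of 4 pairs, by 0.04 to 0.20. The mean difference was 0.10 with a 95% interval of -0.11 to 0.31 (limma adjusted p = 0.668), so a change of the transcript by more than 0.31 lies outside the interval of this fit.

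**Figure D2:**
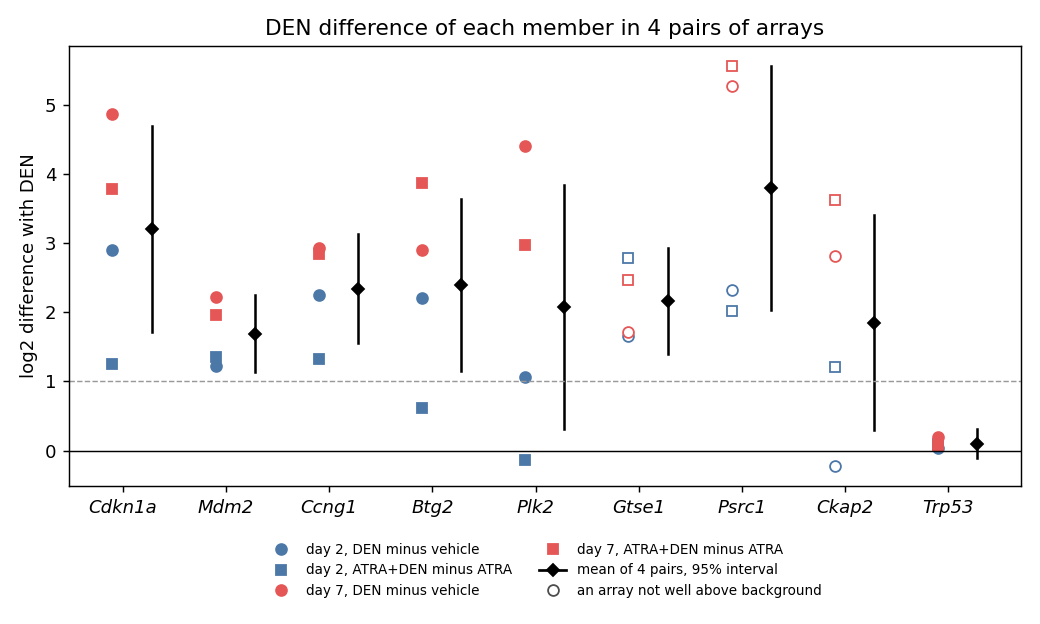
Log2 difference with DEN for each member, as 4 pairs of arrays (circles DEN minus vehicle, squares ATRA+DEN minus ATRA, blue day 2, red day 7, open where an array of the pair was not well above background) and as their mean with its 95% interval (diamond and line). The dashed line marks a 2-fold difference. Mdm2 has the narrowest interval of the 8 targets, and Trp53 lies near 0 in every pair.

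Counted over single pairs, which have no test, 7 members were at least 2-fold higher in DEN than in vehicle livers at day 2 (3.13% of all genes), and 6 in ATRA+DEN than in ATRA livers (3.08%). At day 7 the counts were 8 for the array titled DEN (6.77% of all genes) and 8 for the array titled ATRA+DEN (4.01%), every member but Trp53. Cdkn1a, Mdm2, Ccng1, Btg2, Gtse1 and Psrc1, that is 6 of 9, had all 4 arrays with DEN above all 4 without, as did 1.31% of all genes. The counts include pairs of Gtse1, Psrc1 and Ckap2 in which the lower array was not well above background, and for Gtse1 both arrays of the pairs without ATRA were dim.

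Whether the DEN difference grew between the days was tested with an interaction term. The estimate was larger at day 7 for 8 members, as it was for 48.7% of all genes, by 3.23 for Plk2 (SE 0.64), 2.25 for Cdkn1a (SE 0.88) and 1.97 for Btg2 (SE 0.68). The terms of 3.25 for Psrc1 (SE 0.62) and 2.73 for Ckap2 (SE 0.66) are set against arrays without DEN that were all below background, and the DEN array of day 2 was dim for Ckap2 too. None of the 9 passed, with limma adjusted p-values from 0.55 for Psrc1 to 0.979 for Gtse1, and 0.0% of all genes did (766 higher and 763 lower before adjustment, at p under 0.05). For Gtse1 the term was -0.13 (SE 0.68). With day-7 groups taken from the characteristic the term turned negative for Cdkn1a, Mdm2, Ccng1, Btg2, Plk2 and Psrc1.

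Other genes of the pathway were described as lists. Of 25 further p53 targets 24 were tested: 21 had a higher mean level with DEN, 15 were higher in all 4 pairs and 5 were at least 2-fold higher in all 4. Over all 21186 genes these counts were 9693, 1943 and 34. The median difference of the list was 0.86, beside 2.16 for the 9 members, a median that falls on the dim gene Gtse1, and -0.02 for all genes tested. Phlda3, a target that restrains Akt signalling, had the largest difference, 5.89 (SE 0.53), with levels of 3.70 in DEN and 3.20 in ATRA+DEN against -1.32 in vehicle and -1.49 in ATRA livers at day 2. Its limma adjusted p of 0.133 was the lowest of any gene. Gdf15, a secreted stress hormone, followed with 3.48 (SE 0.40, limma adjusted p = 0.171), then Tnfrsf10b, a death receptor, with 3.30 (SE 0.45), and Trp53inp1, a partner of p53, with 2.28 (SE 0.47).

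Arrest genes and inhibitors of cyclin-dependent kinases outside the members had smaller differences. Of 13 listed, 11 were tested, 6 had a higher mean level with DEN and none was 2-fold higher in all 4 pairs, with a median difference of 0.15. Cdkn2c, an inhibitor of the G1 kinases, was at 0.48 (SE 0.25) and Sfn, the 14-3-3 sigma protein, at -0.72 (SE 0.17), lower in 4 of 4 pairs (limma adjusted p = 0.264). The list of p53 regulators holds enzymes that modify the protein, its binding partners and its family members, and the 14 tested had a median difference of 0.02. Trp63, a family member of p53, had the largest difference of one sign, 0.65 (SE 0.28, higher in 4 of 4 pairs), followed by 0.40 (SE 0.13) for Rchy1, a ubiquitin ligase, and -0.38 (SE 0.13) for Hipk2, a kinase that phosphorylates p53. Immediate early genes, to which Btg2 is also counted in other settings, had a median of 0.24 over 10 tested, with Egr1 at 2.11 (SE 0.38).

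Mitotic genes were set beside the spindle genes Gtse1, Psrc1 and Ckap2. Of 23 listed mitotic genes 14 were tested and the others were not. The median level over those tested was -3.15 to -1.50 on arrays with DEN and -2.74 to -1.82 on those without. Of the 14 tested 5 had a higher mean level with DEN. The median differences of the 14 were -0.44 for DEN and 0.38 for ATRA+DEN at day 2. They were -0.46 and 0.64 in the arrays titled so at day 7. Tpx2, a spindle assembly factor, had the largest difference of one sign, 0.84 (SE 0.31), and was well above background on 4 arrays only. Of 16 listed G1 and S phase genes 14 were tested. Their median was -0.07, with Ccnd3, a D-type cyclin, at -0.28 (SE 0.10).

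Markers of liver cell types were followed beside the members. None of 6 hepatocyte markers had a higher mean level with DEN, and their median difference was -0.31, with a median level over the list of 7.83 to 8.14 on arrays with DEN and 8.07 to 8.53 on those without. Medians of the lists for Kupffer cells, sinusoidal endothelium, stellate cells, cholangiocytes, lymphocytes, neutrophils and pancreas lay between -0.53 and 0.61. The red cell list had the largest median, -2.06 over 3 tested genes, with Hba-a1, an alpha globin, lower in 4 of 4 pairs, by differences of -0.93 to -3.27. Alas2, the heme synthesis enzyme of red cell precursors, went the other way and was higher in 4 of 4 pairs, by 0.06 to 3.70 with a mean of 2.04 (SE 0.64). The median level over the red cell list was 2.61 to 2.98 on arrays with DEN and 2.83 to 5.50 on those without. The part of these shifts in the levels of the members was not tested.

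**Figure D3:**
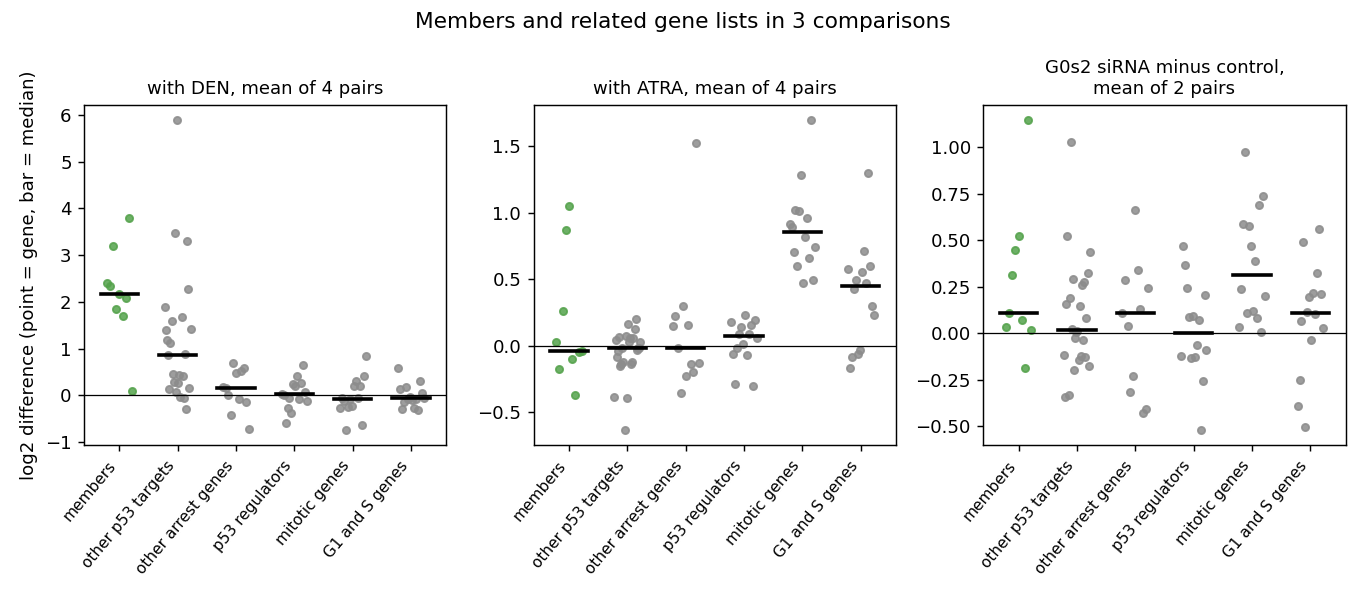
Log2 differences of the members (green) and of 5 related gene lists (grey), each point a gene and each bar the median, for DEN (mean of 4 pairs), ATRA (mean of 4 pairs) and G0s2 siRNA (mean of 2 pairs). Vertical ranges differ between panels. With DEN the members, 3 of them dim without DEN, have a median of 2.16 and the other p53 targets 0.86. With ATRA the medians of the mitotic genes, at 0.85, and of the G1 and S phase genes, at 0.45, stand above 0.

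The array holds 2 more Cdkn1a probes, which differ in where on the gene they lie. One, assigned to transcript ENSMUST00000122348 (29235299 to 29235358), lies 2078 bases before the main probe. It was at -1.80 in DEN and -5.31 in ATRA+DEN against -5.17 in vehicle and -5.38 in ATRA livers at day 2, and at 0.23 and -0.38 against -5.15 and -4.79 in the same order at day 7, by title. ATRA+DEN livers of day 2 were thus not well above background at this probe, although the main probe was 2.39-fold above that of ATRA livers.

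The other probe, assigned to NM_001111099 (29227986 to 29228045), lies 9391 bases before the main probe. It was well above background on 4 arrays, all of day 7: at -0.69 in the array titled DEN, -0.76 in the one titled ATRA+DEN, 0.49 in G0s2 siRNA and -2.14 in control siRNA livers. At day 2 it was not well above background on any array, with levels of -4.58 in DEN and -4.55 in ATRA+DEN against -5.30 in vehicle and -5.55 in ATRA livers. At day 7 it was at least 5.07-fold higher in DEN than in vehicle livers and at least 4.98-fold higher in ATRA+DEN than in ATRA livers. RefSeq's more upstream Cdkn1a start, with the full p53 site printed above, and this probe come from different genome builds and were not placed on one another.

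**Figure D4:**
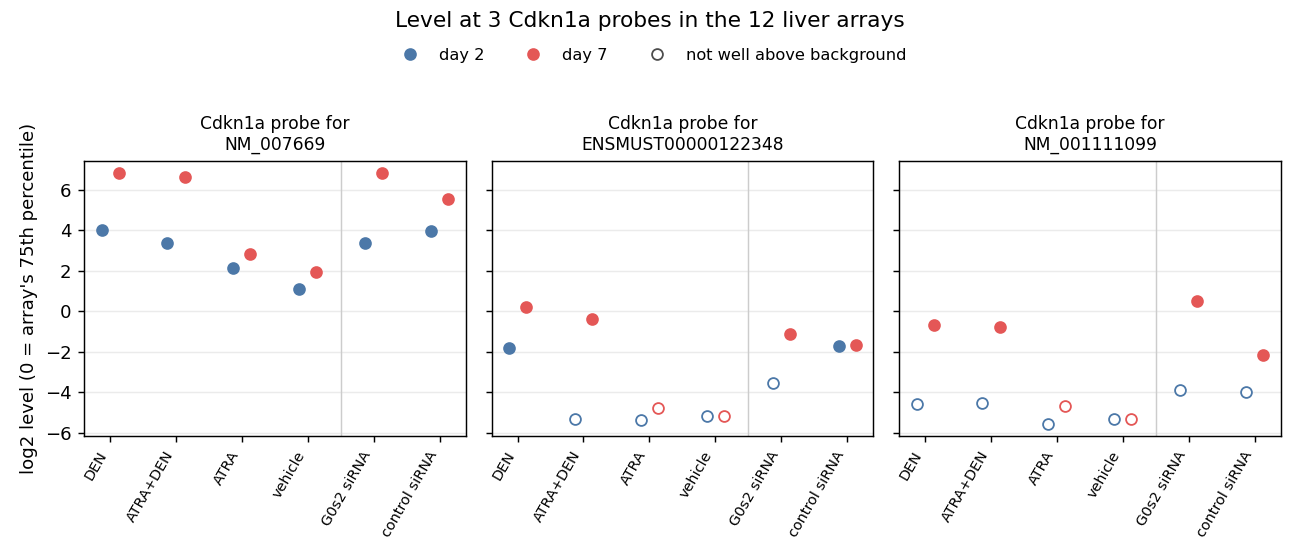
Level at each of the 3 Cdkn1a probes in the 12 arrays (log2, 0 is the array's 75th percentile), named by the transcript that the array annotation gives. Blue points are day 2, red points day 7, and open points were not well above background. The NM_001111099 probe is filled on 4 arrays of day 7 and on none of day 2.

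Genes were ranked by how closely their levels followed Cdkn1a over the 12 arrays, after each day's mean was subtracted. The ranking held 12866 genes well above background on at least 6 arrays, with predicted and clone names left out. Closest were Zmat3 (Pearson r = 0.982), Ddit4l (0.982), Tnfrsf10b (0.981), Bax (0.978) and Dyrk3 (0.972). Ccng1 came 6th with 0.971, Psrc1 15th with 0.954, Btg2 18th with 0.951, Mdm2 22nd with 0.942, Ckap2 92nd with 0.861 and Plk2 146th with 0.814. Trp53 had an r of -0.05, and Gtse1 was above background on too few arrays to be ranked. Ddit4l and Psrc1 were well above background on 8 arrays and Ckap2 on 7, none of them an array of vehicle or of ATRA alone. These genes thus met the filter only through DEN and siRNA arrays, and their coefficients rest in part on dim signals. These coefficients share the same 12 arrays and slides and describe likeness only.

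**Figure D5:**
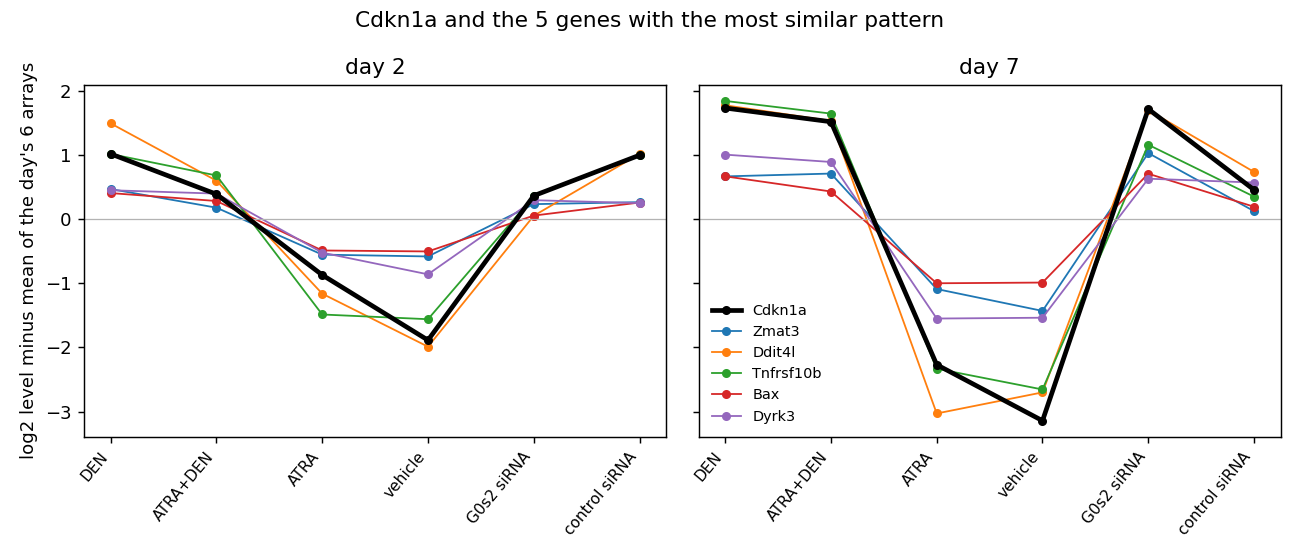
Levels of Cdkn1a (thick line) and of the 5 genes closest to it, as log2 level minus the mean of the 6 arrays of that day. All 6 genes lie lowest in the ATRA and vehicle arrays at both days, and the lines join arrays that have no order.

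The ATRA comparison, which uses the same 8 arrays as the DEN comparison, asked whether retinoic acid moved these genes with or without DEN. None of the 9 passed and 0.0% of all genes did (limma, 735 higher and 496 lower before adjustment, at p under 0.05). The median difference of the members was -0.04, and 7 of the 9 had mean differences between -0.37 and 0.26. For Cdkn1a the difference was 1.02 between ATRA and vehicle and -0.63 between ATRA+DEN and DEN livers at day 2, and 0.87 and -0.21 in the same pairs at day 7. ATRA livers were thus higher than vehicle livers at both days and ATRA+DEN livers lower than DEN livers. The test of that difference, DEN by ATRA, gave -1.36 (SE 1.18) for Cdkn1a with a limma adjusted p of 1.

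Gtse1 and Ckap2 had the largest ATRA differences of the set, 1.05 (SE 0.36, limma adjusted p = 0.845) and 0.87 (SE 0.28), and neither passed. For Ckap2, ATRA+DEN livers were 2.48-fold above DEN livers at day 7, where both arrays were well above background, and at least 1.54-fold at day 2. Gtse1 was at least 1.55-fold higher in ATRA+DEN than in DEN livers at day 2. At day 7 its signal was 4.10-fold higher at face value, but the array titled DEN was not well above background. Its dim signal lay above the dimmest that counted as well above background there, so no bound can be given. Of 23 listed mitotic genes 14 were tested. All 14 had a higher mean level with ATRA, a count to set beside 10732 of 21186 for all genes, with a median of 0.85. Among them were Plk1, the main mitotic polo-like kinase, at 1.70 (SE 0.48) and Cdk1, the mitotic kinase, at 1.28 (SE 0.24). Plk1 was well above background on 10 arrays and Cdk1 on 9. Both were dim in the DEN array of day 2, so these differences take dim signals at face value. The median of the mitotic genes differed by 0.70 and 1.81 in the day 2 pairs without and with DEN, and by -0.03 and 0.97 in those of day 7. Of the 14 tested G1 and S phase genes 10 had a higher mean level with ATRA, with a median of 0.45. Psrc1, the third spindle gene, differed by -0.05 with ATRA (SE 0.20). The day 7 pairs compare arrays of different slides.

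The siRNA arrays ask what a lower level of G0s2, an inhibitor of the main triglyceride lipase, does in liver. G0s2 itself was at 1.99 in G0s2 siRNA against 3.84 in control siRNA livers at day 2, and at 2.26 against 3.45 at day 7. In all 4 siRNA arrays Cdkn1a and Ccng1 stood nearer to the DEN array of the same day than to its vehicle array. Cdkn1a was at 3.37 in G0s2 siRNA and 4.00 in control siRNA livers at day 2, beside 4.02 in DEN and 1.12 in vehicle, and at 6.82 and 5.56 at day 7, beside 6.83 and 1.96. Ccng1 was at 2.02 in G0s2 siRNA and 2.51 in control siRNA livers at day 2 and at 4.26 and 3.55 at day 7.

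Both siRNA arrays were at least 2-fold above vehicle for 5 members at day 2, Cdkn1a, Ccng1, Btg2, Gtse1 and Psrc1, against 3.67% of all genes. Gtse1 was not well above background there in G0s2 siRNA or vehicle livers, nor Psrc1 in vehicle livers. At day 7 this held for 8 members, all but Trp53, against 4.13% of all genes, with the vehicle array of Gtse1, Psrc1 and Ckap2 again dim. Among the brighter targets Mdm2 and Plk2 missed the count at day 2. Mdm2 was 1.35-fold above vehicle in G0s2 siRNA and 1.74-fold in control siRNA livers, and Plk2 was below it, with -0.85 in G0s2 siRNA and -0.95 in control siRNA livers beside -0.52 in vehicle and 0.54 in DEN livers. Phlda3 was likewise at 2.39 and 3.46 in G0s2 and control siRNA livers at day 2 and at 6.03 and 4.96 at day 7. The siRNA arrays lay on other slides than the vehicle array of their day. Those of day 7 shared a slide with the arrays titled ATRA and ATRA+DEN. Against the array titled ATRA, Cdkn1a differed by 3.98 in G0s2 siRNA and 2.72 in control siRNA livers. Ccng1 differed by 3.49 and 2.78 there, and Trp53 by -0.32 and -0.28. DEN in these mice and an effect of the siRNA injection cannot be told apart from the labels.

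In G0s2 siRNA livers 6 of the members were lower than in control siRNA livers at day 2 and higher at day 7, as were 20.9% of all genes. Cdkn1a was lower by a log2 difference of -0.63 in G0s2 siRNA than in control siRNA livers at day 2 and higher by 1.26 at day 7. The same held for Mdm2 (-0.37 and 0.52), Ccng1 (-0.50 and 0.71), Btg2 (-0.44 and 0.51), Gtse1 (-0.27 and 1.32) and Ckap2 (-0.14 and 1.04). Psrc1 was higher at both days, at -2.16 in G0s2 siRNA against -2.39 in control siRNA livers at day 2 and at 0.40 against -1.67 at day 7, a 4.18-fold difference. Plk2 and Trp53 turned the opposite way, with 0.10 and -0.47 for Plk2 and 0.06 and -0.04 for Trp53. The day 2 value of Gtse1 rests on a G0s2 siRNA array that was dim.

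At day 7 Cdkn1a, Gtse1, Psrc1 and Ckap2 were at least 2-fold higher in the G0s2 siRNA array, as were 4.36% of all genes. The other Cdkn1a probes disagreed in size, with all these arrays well above background. The probe for ENSMUST00000122348 was only 1.42-fold higher, and that for NM_001111099 was 6.17-fold higher. No member passed in the mean of the 2 pairs, and 0.0% of all genes did (limma, 864 higher and 574 lower before adjustment, at p under 0.05). In the test of the difference between the days no member passed either, with limma adjusted p-values of 1 for all 9, and 0.00472% of all genes passed. Of the Kupffer cell markers 0 of 6 had a higher mean level with G0s2 siRNA than with control siRNA. The median difference was -0.75, led by Marco, a scavenger receptor, at -2.14 (SE 0.18). At day 2 Marco was above vehicle (1.06) in both, at 3.82 in G0s2 siRNA and 6.05 in control siRNA livers. At day 7 it was at 1.35 in G0s2 siRNA and 3.42 in control siRNA livers, beside 2.19 in vehicle. The part of these markers in the members' levels was not tested.

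Day 7 was compared with day 2 over 6 treatments. Higher levels at day 7 passed for 7 of the 9 members, Cdkn1a by 2.10 (SE 0.42, limma adjusted p = 0.00666), Psrc1 by 2.13 (SE 0.56), Btg2 by 1.21 (SE 0.39), Ccng1 by 1.06 (SE 0.28), Mdm2 by 0.93 (SE 0.22), Gtse1 by 0.88 (SE 0.29) and Trp53 by 0.40 (SE 0.10), with adjusted p-values of at most 0.0408. Of all genes 26.3% passed as higher at day 7. Gtse1 and Psrc1 were dim in vehicle and ATRA livers at both days, and Gtse1 in DEN livers too. Their day differences thus take dim signals at face value. With normexp background correction Gtse1 was at 0.253 and no longer passed (limma adjusted p = 0.0904). With no filter on dim probes Gtse1 (limma adjusted p = 0.0576) and Btg2 (limma adjusted p = 0.0556) did not pass. Plk2 at 1.12 (SE 0.56, limma adjusted p = 0.136) and Ckap2 at 0.44 (SE 0.46, limma adjusted p = 0.466) did not pass. The 6 differences behind the mean of Cdkn1a were 2.82 in DEN, 3.23 in ATRA+DEN, 0.70 in ATRA, 0.85 in vehicle, 3.45 in G0s2 siRNA and 1.56 in control siRNA livers. For Trp53 they ranged only from 0.22 in vehicle to 0.61 in ATRA livers. Leaving out the DEN, ATRA+DEN, vehicle or either siRNA treatment in turn ended the call of Btg2, and the calls of Gtse1, Psrc1 and Ccng1 were also each lost without at least 1 treatment. With day-7 groups from the characteristic the calls of Mdm2 (limma adjusted p = 0.118), Ccng1, Btg2, Gtse1 and Psrc1 were lost, and those of Cdkn1a and Trp53 remained. Because no slide held arrays of both days, day and slide cannot be told apart.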

How the data were processed

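Liver RNA was isolated with TRIzol, amplified and labelled with Cy3, per the labels' protocols. The deposited files hold the processed intensity of each spot from Agilent's Feature Extraction, after background subtraction and detrending, per the file headers, which name version 10.7.1.1 (9.5.1.1 per the submitters' processing notes). The authors' series table holds normalized intensities and was used, after a log2 transform, as an alternative within a day. Spots of a probe were averaged, the processed intensities were log2 transformed and the array's 75th percentile was subtracted. Where a gene has several probes the brightest on average stood for it, and only genes above background there on 2 or more arrays were tested. Differences were tested with limma 3.58.1 (R 4.3.3), Benjamini-Hochberg adjusted over 21186 genes, threshold 0.05. The DEN and siRNA fit used all 12 arrays with the pair as a block, the ATRA fit the 8 arrays without siRNA, and the day fit the treatment as a block. With 1 array per group, p-values rest on the spread between pairs, and the number of arrays limits the precision. All members were named; of each list, up to 4 genes with the largest DEN difference of one sign in all pairs, and up to 2 for other comparisons. The members, lists, motifs and naming rule were chosen with earlier results of these data known. The fits were run on simulated data with independent noise, set below the genes' spread in these arrays and without slide or dim-signal effects. That run does not show how the fits perform on these arrays. Alternatives were background correction, normalization, the authors' table, the dim-probe filter, the probe of a gene, day-7 groups, slide and pairs left out.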

Additional observations from a re-analysis of the deposited data

How the results depend on the processing

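Values are log2 differences by limma unless they are counts. All 114 DEN differences of members under alternatives kept their direction, and none passed in any, but their size moved. Part of that count was fixed in advance. The filters on dim probes and leaving out the siRNA arrays cannot change a member's DEN difference, only its p-value. The mean over probes can change that of Cdkn1a only. With normexp Gtse1 was at 0.31, Psrc1 at 1.23, Ckap2 at 0.40 and Trp53 at 0.002. With day-7 groups from the characteristic Cdkn1a was at 1.20, Mdm2 at 0.54, Ccng1 at 0.89, Btg2 at 0.58, Plk2 at 0.27, Psrc1 at 1.24 and Ckap2 at 0.695, and Plk2 was at 1.30 without the day 7 pair without ATRA. With normexp background correction 13 genes passed for DEN, 4 for G0s2 siRNA, 1 for DEN by day and 10 for G0s2 siRNA by day, none of which was checked further, and the cause was not tested. The count of members at least 2-fold higher with DEN in all 4 pairs was 3 with normexp (cause not tested), 3 with genes above background on all 12 arrays, where Gtse1 and Psrc1 are not tested, and 0 with day-7 groups from the characteristic, which exchanges arrays. Leaving out a pair gave 5 to 7. For G0s2 siRNA by day 1 gene passed, and 0 did with the array median, with no filter on dim probes or above background on all 12 arrays (cause not tested). Leaving out a siRNA pair gave 0 to 1 passing genes.

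Of 114 ATRA differences 13 reversed, as did 14 of 78 for G0s2 siRNA and 8 of 69 for DEN by day, none from a called value. With quantile normalization the siRNA difference was -0.054 for Mdm2 and -0.002 for Btg2, and DEN by day was 0.034 for Gtse1. With the array median ATRA was 0.016 for Psrc1 and 0.026 for Trp53, and siRNA was -0.022 for Mdm2, -0.06 for Btg2 and -0.079 for Trp53. That scaling put the median day difference of all genes at 0.36, against 0.11. The authors' table gave a siRNA difference of -0.054 for Mdm2, the mean over probes an ATRA difference of -0.215 for Cdkn1a, and the slide as a block 0.005 for Mdm2. Normexp gave 0.223 for DEN by day of Gtse1. With groups from the characteristic ATRA was 0.067 for Mdm2 and -0.088 for Btg2. DEN by day was then -1.75 for Cdkn1a, -1.504 for Mdm2, -1.804 for Ccng1, -1.656 for Btg2, -0.382 for Plk2 and -1.859 for Psrc1.

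Leaving out a pair, ATRA ranged from -0.273 to 0.035 for Ccng1, -0.328 to 0.283 for Btg2, -0.217 to 0.12 for Psrc1 and -0.112 to 0.02 for Trp53. The siRNA difference ranged from -0.631 to 1.258 for Cdkn1a, -0.375 to 0.52 for Mdm2, -0.497 to 0.709 for Ccng1, -0.443 to 0.51 for Btg2, -0.474 to 0.102 for Plk2, -0.271 to 1.32 for Gtse1, -0.145 to 1.04 for Ckap2 and -0.035 to 0.065 for Trp53. A lone siRNA pair takes its spread from the other pairs. Of 114 day differences 20 no longer passed and 1, Plk2 at 1.62 (limma adjusted p = 0.0296), passed without vehicle. Signal over background limits Gtse1, Psrc1 and Ckap2, whose arrays without DEN were all dim.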
